A study of Ovis aries with 12 samples.

Results

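The cadherin and protocadherin genes of the sheep hippocampus were measured by RNA sequencing of pooled tissue. The set was every gene of the deposited table with a symbol made of CDH and a number, or beginning with PCDH, without the endothelial CDH5 and without CDH24. It held 34 of the 33609 genes listed, and 31 of these 34 passed the filter on low counts and were tested. The tissue came from adult Ile-de-France ewes, in 4 groups of 6 ewes and 3 libraries each, and every library was a mix of equal amounts of RNA from 2 ewes. The groups were dorsal hippocampus of ewes under chronic stress (dorsal stress), dorsal hippocampus of control ewes (dorsal control), ventral hippocampus of stressed ewes (ventral stress) and ventral hippocampus of control ewes (ventral control). The 12 ewes gave both regions, so that dorsal and ventral pools share animals, which the tests do not take into account. The labels abbreviate the dorsal samples as DG and do not say whether the dentate gyrus alone was taken, and they do not say what the stress consisted of.

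Cadherins are calcium-dependent adhesion proteins that join the membranes of neighbouring cells. Classical cadherins bind catenins inside the cell and so reach the actin skeleton; type I members such as N-cadherin bind mostly their own kind, and type II members form groups of preferred partners. The delta protocadherins are nonclustered relatives without the catenin-binding part of classical cadherins, and several of them recruit the WAVE complex, which drives actin branching. Clustered protocadherins are chosen in different combinations by single neurons and mark them as individuals. In the rodent hippocampus, members of these families are known to differ between subfields and to take part in the building of synapses.

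Dorsal and ventral hippocampus differed in 6 of the 31 tested members (19.4%, against 4.51% of all tested genes). Of these, 5 were lower (3.07% of all tested genes) and 1 was higher (1.44%) on the dorsal side. CDH18, CDH6 and CDH7 of type II, CDH13, which is held in the membrane by a lipid anchor, and CDH1, the epithelial E-cadherin, were between 3.02-fold and 3.94-fold lower in dorsal tissue, and CDH22 of type II was 1.73-fold higher. Only CDH18 and CDH13 stayed called on leaving out each of the 12 libraries in turn. The call was lost without any 1 of 4 libraries for CDH6, 6 for CDH7, 9 for CDH1 and 11 for CDH22. No protocadherin was called between regions by edgeR, while PCDH17 (edgeR adjusted p = 0.0772) was called by DESeq2 and under some other settings. Chronic stress gave no call in any of the 31 members in either region, where 0% of all tested genes were called. All differences are from edgeR's quasi-likelihood test on the 12 libraries, with Benjamini-Hochberg adjustment over the 17806 genes tested, a threshold of 0.05 on the adjusted p, and standard errors (SE) for log2 fold changes. Levels are CPM, counts relative to the size of the library, with library sizes adjusted by the TMM method. They do not account for gene length, so levels are compared between groups and not between genes. In bulk tissue, fewer cells of a type and less RNA per cell cannot be told apart.

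Library totals ranged from 12254743 to 53775720 counts, and all dorsal stress libraries, at 21244822 or fewer, were shallower than all dorsal control libraries, at 24952808 or more. Libraries of the same group stood far apart along the first principal component of log2 CPM, which held 50.04% of the variance. Ventral control 1, dorsal control 1 and dorsal stress 1 lay at the low end (-103, -81.3 and -70.2) and ventral stress 3 and ventral control 3 at the high end (80.8 and 105). Markers of dentate granule cells summed to between 93.6 and 223 CPM in all libraries, with TDO2 at 0 throughout, and those of CA1 pyramidal cells to between 94.4 and 342 CPM. The interneuron marker SST was listed at 0 in all libraries.

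The share of all counts that fell on the 34 members followed this order at both of its ends. It was 0.0709%, 0.0967% and 0.113% in dorsal stress libraries 1 to 3 and 0.0624%, 0.0912% and 0.0860% in dorsal control libraries 1 to 3. It was 0.0956%, 0.0862% and 0.144% in ventral stress libraries 1 to 3 and 0.0640%, 0.0896% and 0.149% in ventral control libraries 1 to 3. The 3 libraries at the low end of the first component thus had the 3 lowest shares and came from both regions and both conditions. The 2 at its high end had the 2 highest shares and came from both conditions, but both were ventral.

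Single members varied within groups by unequal amounts, and not all of them followed the main axis. CDH20 of type II had the largest SD within groups, at 1.22 log2 units, among the tested members with counts in every library. It had 4.82, 24.1 and 22.1 CPM in dorsal stress, 4.37, 18.5 and 16.2 CPM in dorsal control, 23.3, 8.93 and 25.1 CPM in ventral stress, and 3.10, 9.72 and 25.5 CPM in ventral control. Its groups overlapped. CDH18 spanned between 1.11-fold in ventral control and 1.49-fold in ventral stress, and PCDH8 between 1.04-fold in dorsal control and 1.35-fold in dorsal stress. CDH20 spanned between 2.81-fold in ventral stress and 8.23-fold in ventral control. The main axis of the differences within groups held 66.1% of that variance, and 19 of the 31 tested members (61.3%) correlated with it above 0.8, against 28.01% of all tested genes. This correlation is across 12 libraries after removal of group means, the axis was computed from the same counts, and it is given as a description. The sign of the axis was set so that the median correlation of the members was positive, and both shares cover that side only. Below -0.8 there were 0 members, and the share of all tested genes there was not counted. Negative correlations were found for PCDH12 (-0.78), CDH15 (-0.711), PCDH8 (-0.632), CDH16 (-0.604), CDH4 (-0.375) and CDH18 (-0.126). The median SD within groups was 0.57 log2 units for the members and 0.50 for all tested genes.

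**Figure D1:**
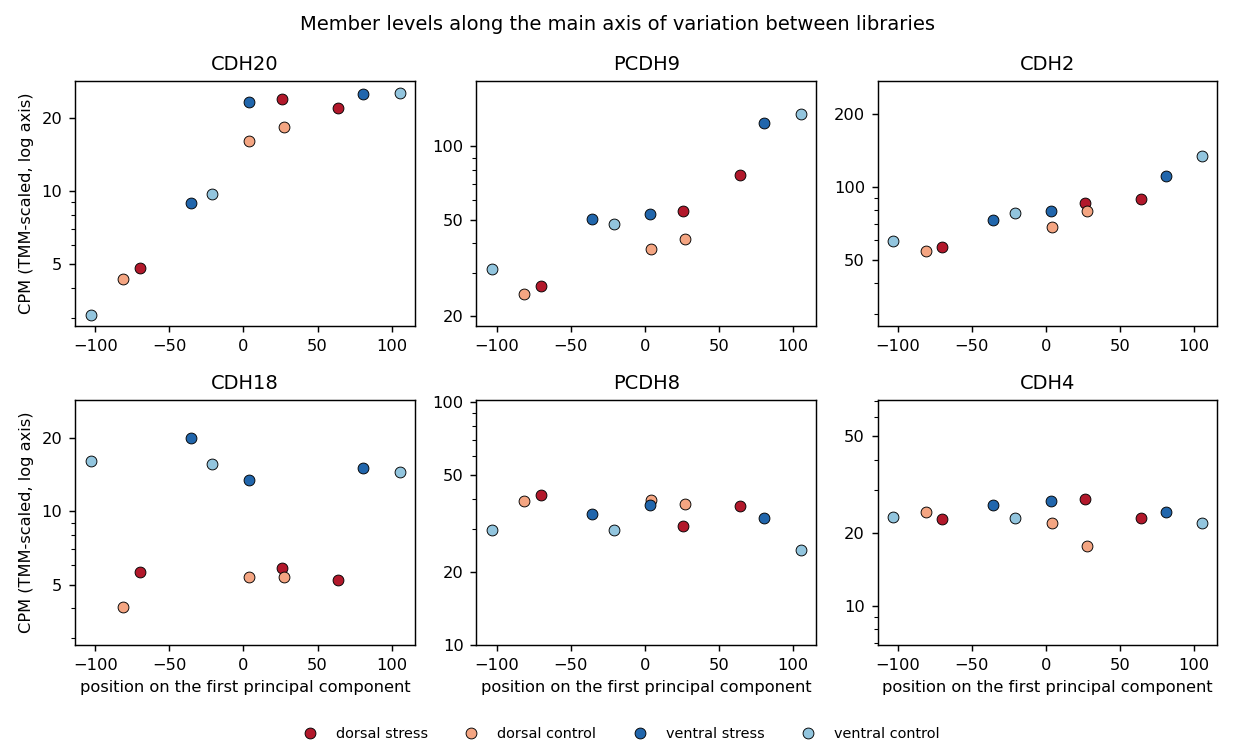
Level of 6 members in each of the 12 libraries (TMM-scaled CPM, log axis of the same width in fold in all panels) against the library's position on the first principal component of all tested genes, with points coloured by group. CDH20, PCDH9 and CDH2 increase from the low to the high end of the axis in all groups, while CDH18 keeps 2 levels by region, 4.06 to 5.83 CPM in dorsal and 13.5 to 20.0 CPM in ventral libraries.

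Between regions, averaged over both conditions, 6 of the 31 tested members were called, or 19.4%, against 4.51% of all tested genes. In dorsal tissue 1 member was higher (1.44% of all genes) and 5 were lower (3.07% of all genes). Of the other 25, which were not called, log2 fold changes ran from -1.15 to 1.26. The median log2 fold change over the 31 members was -0.31, against -0.02 over all tested genes, and 21 of the 31 were negative. These 31 values share the same libraries, so that the median and the count of signs are a description of them. At an unadjusted p under 0.05 there were 10 members, against 13.7% of all tested genes. In CDH13, CDH18, CDH6 and CDH7 all 6 dorsal libraries lay below all 6 ventral libraries, a separation in either direction that 4.9% of all tested genes had.

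Among type I classical cadherins, CDH1 (GeneID 101119747) was the member called. E-cadherin is the cadherin of epithelia and is scarce in neurons. It had 1.19, 1.62 and 1.72 CPM in dorsal stress and 0.768, 1.21 and 3.75 CPM in dorsal control, against 4.22, 5.37 and 8.31 CPM in ventral stress and 3.22, 6.70 and 12.4 CPM in ventral control. Dorsal stress lay wholly below ventral stress, while dorsal control 3 overlapped with ventral control 1. The log2 fold change, dorsal over ventral, was -1.98 ± 0.45, a 3.94-fold lower level in dorsal tissue (edgeR adjusted p = 0.0323). The call was lost on leaving out any one of 9 libraries, all except dorsal control 3, ventral stress 1 and ventral control 1, with a highest adjusted p of 0.0943.

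The other 4 type I members were not called. CDH2, the neuronal N-cadherin and the member of this type with the most counts, averaged 76.9 ± 17.8 CPM in dorsal stress, 67.2 ± 12.6 in dorsal control, 87.6 ± 20.1 in ventral stress and 90.6 ± 38.4 in ventral control (SD, n = 3 each). Its log2 fold change was -0.31 ± 0.22 (edgeR adjusted p = 0.737). CDH3, or P-cadherin, had -0.29 ± 0.22 and CDH4, or R-cadherin, -0.09 ± 0.13. CDH15, the cadherin of muscle precursors, had 1.26 ± 0.60 at no more than 1.54 CPM in any library.

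Type II classical cadherins held 4 of the 6 calls among 10 tested members, 3 lower and 1 higher in dorsal tissue. CDH18 (GeneID 101119421), a cadherin of the central nervous system, showed the cleanest separation. It had 5.62, 5.83 and 5.23 CPM in dorsal stress and 4.06, 5.37 and 5.39 CPM in dorsal control, against 13.5, 20.0 and 15.1 CPM in ventral stress and 16.1, 15.7 and 14.5 CPM in ventral control. Its highest dorsal library was below its lowest ventral library by more than the spread within any group. The log2 fold change was -1.59 ± 0.16, a 3.02-fold lower level in dorsal tissue (edgeR adjusted p = 0.000538), and it stayed called on leaving out each of the 12 libraries in turn (adjusted p 0.00100 to 0.00389).

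CDH6 (GeneID 101116091), also called K-cadherin from its description in kidney, had 2.59, 3.09 and 5.64 CPM in dorsal stress and 3.29, 3.01 and 3.59 CPM in dorsal control. It had 6.92, 9.13 and 15.4 CPM in ventral stress and 5.86, 9.62 and 17.4 CPM in ventral control. All dorsal libraries were below all ventral ones, by a small margin between dorsal stress 3 and ventral control 1. This was a log2 fold change of -1.61 ± 0.32, a 3.05-fold lower level in dorsal tissue (edgeR adjusted p = 0.0193), and the call was lost without dorsal stress 2 or any 1 of the 3 dorsal control libraries (highest adjusted p = 0.0662).

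CDH7 (GeneID 101104029), which in the chick embryo marks migrating neural crest cells, had 2.34, 4.002 and 4.98 CPM in dorsal stress and 6.34, 4.27 and 2.81 CPM in dorsal control. It had 8.16, 9.05 and 23.2 CPM in ventral stress and 8.10, 11.7 and 22.3 CPM in ventral control. The regions did not overlap, and library 3 of each ventral group was the highest by far. Dorsal over ventral, this gave a log2 fold change of -1.74 ± 0.38, a 3.35-fold lower level in dorsal tissue (edgeR adjusted p = 0.0269). The call was lost without dorsal stress 1 or 2, dorsal control 2 or 3, ventral stress 3 or ventral control 2 (highest adjusted p = 0.0776).

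CDH22 (GeneID 101114377), a brain cadherin first described in rat pituitary and brain, was the member that was higher in dorsal tissue. It had 15.6, 20.2 and 21.5 CPM in dorsal stress and 11.8, 19.7 and 20.0 CPM in dorsal control, against 13.9, 12.9 and 10.3 CPM in ventral stress and 6.66, 10.8 and 9.18 CPM in ventral control. Dorsal libraries were above ventral libraries within each condition, while dorsal control 1 was below 2 of the ventral stress libraries. The log2 fold change was 0.79 ± 0.19 (edgeR adjusted p = 0.0458), just inside the threshold. The call was lost without any 1 of 11 libraries, all but dorsal control 1 (highest adjusted p = 0.124), with no filter on low counts (0.0646), with limma-voom (0.0606), with counts thinned to 1 depth (0.0541) and with either marker score described further on; over all settings other than left-out libraries its adjusted p ran from 0.00182 to 0.294.

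The other 6 type II members had log2 fold changes between -0.51 and 0.32. CDH11, which is found in neurons and in cells of mesenchyme and had the most counts of this type, had 82.6 ± 32.0 CPM in dorsal stress, 68.1 ± 22.0 in dorsal control, 79.3 ± 28.8 in ventral stress and 63.2 ± 33.3 in ventral control (SD, n = 3 each), with a log2 fold change of 0.08 ± 0.32. CDH8, which marks thalamic and cortical connections in rodents, had -0.51 ± 0.31 (edgeR adjusted p = 0.619). CDH9, which in the mouse hippocampus is needed for synapses of mossy fibres on CA3 cells, had 0.18 ± 0.31. CDH19 of the glial lineage had 0.32 ± 0.25, CDH12 -0.02 ± 0.23 and CDH20 -0.07 ± 0.58.

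Of the other cadherins CDH13 (GeneID 101123062) was called. T-cadherin lacks the inner part that binds catenins and also binds the hormone adiponectin. It had 20.7, 20.4 and 28.5 CPM in dorsal stress and 17.5, 27.0 and 26.6 CPM in dorsal control, against 63.0, 77.1 and 85.0 CPM in ventral stress and 46.3, 91.6 and 111 CPM in ventral control. The highest dorsal library, dorsal stress 3, was well below the lowest ventral one, ventral control 1. Its log2 fold change was -1.75 ± 0.23, a 3.36-fold lower level in dorsal tissue (edgeR adjusted p = 0.00236), and it stayed called on leaving out each of the 12 libraries (adjusted p 0.000571 to 0.0124).

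CDH16, a cadherin best known from kidney, had 4.38, 4.86 and 4.002 CPM in dorsal stress and 5.85, 7.67 and 6.09 CPM in dorsal control, against 3.60, 2.77 and 2.00 CPM in ventral stress and 5.19, 2.33 and 1.88 CPM in ventral control. Dorsal libraries lay above ventral ones within each condition, which together with the same pattern in CDH22 and the opposite one in CDH18, CDH13, CDH6 and CDH7 gave 6 of 31 members, against 6.37% of all tested genes. The log2 fold change of CDH16 was 0.86 ± 0.28 and was not called (edgeR adjusted p = 0.129), though DESeq2 called it (adjusted p = 0.0341; range over settings 0.00805 to 0.628). CDH23, which forms the tip links of hair cells in the inner ear together with PCDH15, had -0.02 ± 0.17. CDH26 had 17 counts and CDH17, the cadherin of intestine, 2 counts over all libraries, and neither was tested.

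**Figure D2:**
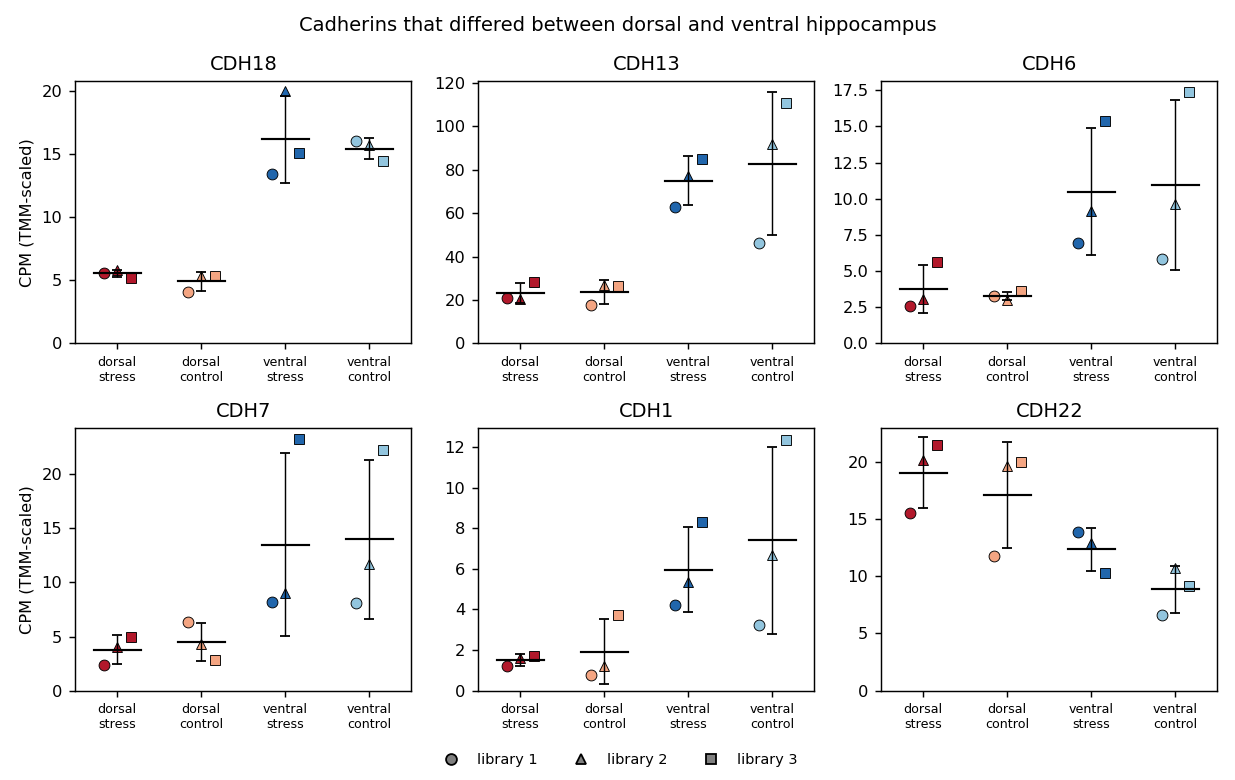
TMM-scaled CPM of the 6 members called between regions, with 1 point per library (marker shape gives the library number), the mean as a line and the SD as a bar for each group of 3. In CDH18, CDH13, CDH6 and CDH7 all dorsal points lie below all ventral points; in CDH1 dorsal control 3, at 3.75 CPM, reaches above ventral control 1, at 3.22 CPM; CDH22 is the member with higher dorsal levels.

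Delta protocadherins were not called between regions in any of 9 tested members, though most were negative. In the delta-2 class PCDH17, which in mice organises synapses of the basal ganglia, had the smallest p. It had 22.4, 34.8 and 47.9 CPM in dorsal stress and 24.4, 35.1 and 32.3 CPM in dorsal control, against 41.9, 61.3 and 117 CPM in ventral stress and 44.2, 57.9 and 114 CPM in ventral control. The control groups did not overlap, while dorsal stress 3 exceeded ventral stress 1. Its log2 fold change was -1.15 ± 0.32 (edgeR adjusted p = 0.0772), and DESeq2 did call it (-1.14, adjusted p = 0.00939; range over settings 0.000112 to 0.752). PCDH10, which had the most counts in this class and controls axon growth in the mouse forebrain, had -0.60 ± 0.25 (edgeR adjusted p = 0.290). PCDH19, an X-linked gene whose variants cause epilepsy in females, had -0.74 ± 0.43, and PCDH18 -0.43 ± 0.37. PCDH8, or arcadlin, which neuronal activity induces in rat hippocampus, had 0.27 ± 0.12 (edgeR adjusted p = 0.377).

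In the delta-1 class 2 of 4 members were negative. PCDH1, the member with the most counts of all 34, had 253 ± 23.1 CPM in dorsal stress, 205 ± 6.65 in dorsal control, 186 ± 44.3 in ventral stress and 189 ± 22.4 in ventral control (SD, n = 3 each), with a log2 fold change of 0.28 ± 0.14 (edgeR adjusted p = 0.408). PCDH9 had -0.79 ± 0.41, and its ventral libraries ran from 31.4 to 137 CPM, so that the SE was wide. PCDH7 had 0.10 ± 0.28 and the X-linked PCDH11X -0.83 ± 0.56.

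Of the other protocadherins none of 3 was called. PCDH12, a protein of blood vessel walls, had -0.84 ± 0.33 (edgeR adjusted p = 0.251), PCDH15 of the hair cell tip link -0.88 ± 0.52 and PCDH20, which had the most counts of the 3, 0.17 ± 0.49. Clustered protocadherins were nearly absent from the set, since only 2 carried a PCDH symbol in the table. PCDHAC1 of the alpha cluster had between 0 and 90 counts and a log2 fold change of -0.99 ± 1.11, and PCDHB1 had 8 counts in all and was not tested. Genes of these clusters share exons or close copies, so that their counts are uncertain, and cluster genes under placeholder symbols were not analysed here.

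**Figure D3:**
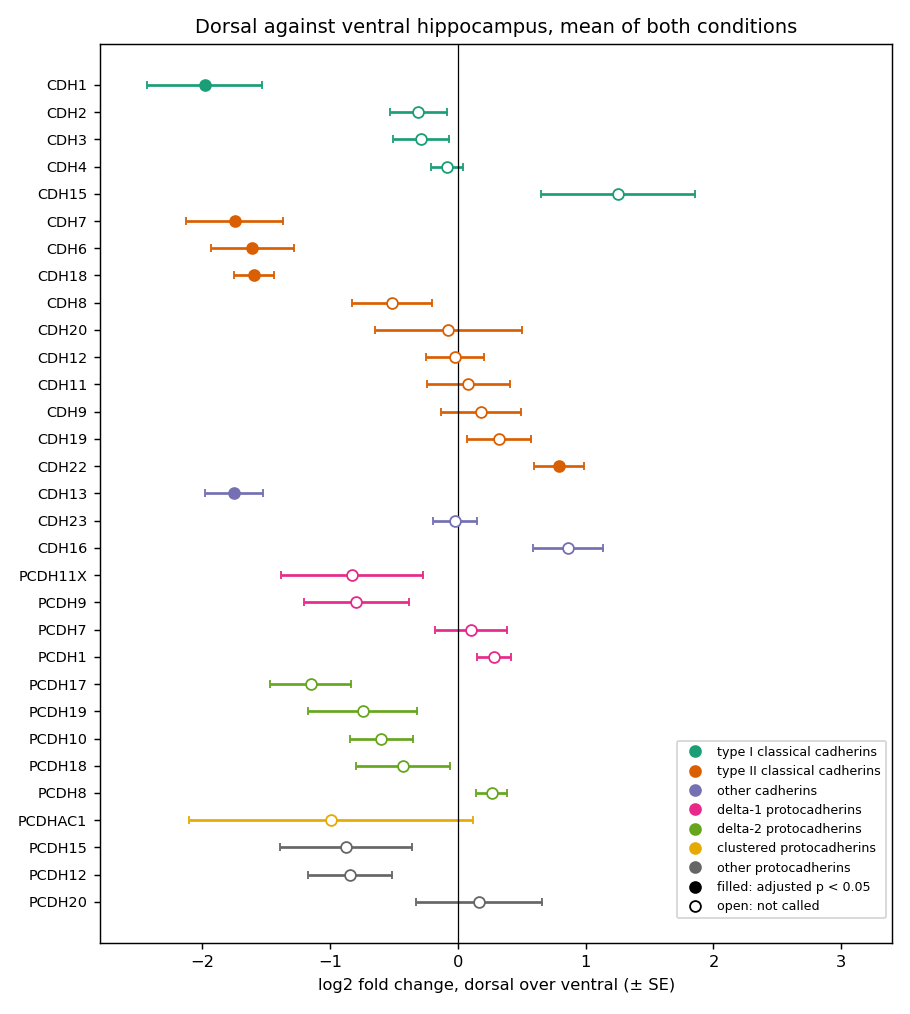
Log2 fold change, dorsal over ventral, with SE for the 31 tested members, grouped and coloured by subfamily; filled points passed an adjusted p of 0.05 and open points did not. The 5 filled points on the left lie between -1.98 and -1.59, and the filled point on the right is CDH22 at 0.79.

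Within each condition alone fewer members passed. In stressed ewes 1 of 31 was called (3.23%, against 0.444% of all tested genes, of which 0.0842% were higher and 0.359% lower), CDH18 at -1.54 ± 0.22 (edgeR adjusted p = 0.0203). The members with the next smallest p there were CDH13 at -1.69 ± 0.32 (edgeR adjusted p = 0.0594), CDH7 at -1.84 ± 0.54, CDH6 at -1.48 ± 0.46 and CDH1 at -1.99 ± 0.64. In control ewes 2 were called (6.45%, against 1% of all tested genes, of which 0.247% were higher and 0.753% lower), CDH18 at -1.64 ± 0.22 (edgeR adjusted p = 0.00978) and CDH13 at -1.80 ± 0.32 (adjusted p = 0.0307). At an unadjusted p under 0.05 there were 8 members in stressed ewes, against 7.86% of all tested genes, and 9 in control ewes, against 8.68%. In control ewes CDH6 had -1.73 ± 0.46, CDH22 0.95 ± 0.28 and CDH1 -1.97 ± 0.63. CDH18 lost its call in stressed ewes without any dorsal stress library or without ventral stress 2 or 3 (highest adjusted p = 0.142). It was also lost there with a block that takes same-numbered dorsal and ventral libraries of a condition as the same ewe pool (0.0545). In control ewes CDH18 lost its call without any dorsal control library or ventral control 2 (highest 0.0669). CDH13 lost its call in control ewes without 9 of the 12 libraries in turn, all but dorsal stress 1 and 3 and ventral control 1 (highest 0.148). With either marker score described further on, CDH18 lost its call in both conditions and CDH13 in control ewes.

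For the 6 members called between regions, no difference between the regional effects of the 2 conditions was detected. The region difference in stressed ewes minus that in control ewes was 0.10 ± 0.31 log2 units for CDH18, 0.11 ± 0.44 for CDH13, 0.25 ± 0.63 for CDH6, -0.20 ± 0.74 for CDH7, -0.01 ± 0.84 for CDH1 and -0.32 ± 0.39 for CDH22. Over all 31 members 0 passed this test in edgeR (0% of all tested genes), 0 had an unadjusted p under 0.05, against 0.258% of all tested genes, and DESeq2 and limma-voom called 0. The SE of CDH7 and CDH1 were the widest of the 6, so that a sizeable difference was not detectable in them.

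Markers of several other cell types moved with region too. Of all tested genes 4.51% were called between regions, 3.07% lower and 1.44% higher in dorsal tissue. Of 11 measured markers of meninges and fibroblasts 7 were lower in dorsal tissue and 0 were higher, with none at 0, and they summed to 226 to 295 CPM in dorsal stress and 192 to 317 CPM in dorsal control, against 567 to 763 CPM in ventral stress and 402 to 782 CPM in ventral control. Of 6 subiculum markers 4 were lower in dorsal tissue, with sums of 56.1 to 96.9 CPM in dorsal stress and 48.9 to 70.4 CPM in dorsal control, against 144 to 247 CPM in ventral stress and 147 to 280 CPM in ventral control. Of 8 striatal markers 3 were lower, and of 9 tested interneuron markers 3 were lower and 1 was higher. Of 7 tested dentate granule cell markers 3 were lower, of 4 CA1 markers 1, and of 5 CA3 markers 1, and none of 6 astrocyte, 6 microglia, 7 endothelium or 5 mural cell markers was called. Positive log2 fold changes, none of them called, were found in 2 of the 7 dentate markers (up to 1.325) and 1 of the 4 CA1 markers (1.43). The same held for 4 of the 5 CA3 markers (up to 0.75) and 3 of the 8 striatal markers (up to 0.75). All 10 oligodendrocyte markers had positive log2 fold changes (0.41 to 0.92, median 0.68), of which 1 was called and 8 had an unadjusted p under 0.05. They summed to 7114 to 11610 CPM in dorsal stress and 8862 to 11700 CPM in dorsal control, against 4657 to 5418 CPM in ventral stress and 4186 to 8806 CPM in ventral control. Of 9 choroid plexus markers 3 were higher in dorsal tissue and 0 were lower. Log2 fold changes in this list were positive in 6 of the 9 and ran from -1.69 to 3.54, so the markers did not all go the same way. Sums were 507 to 1227 CPM in dorsal stress and 871 to 2992 CPM in dorsal control, against 187 to 228 CPM in ventral stress and 164 to 546 CPM in ventral control.

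With the mean of the meningeal list as a covariate none of the 6 members was called, and neither was any of the 17806 tested genes. CDH18 then had -1.39 ± 0.38 and CDH22 1.66 ± 0.44, while CDH13 had -0.18 ± 0.33, CDH6 -0.10 ± 0.75, CDH7 -1.08 ± 1.09 and CDH1 0.70 ± 0.79, with the sign of CDH1 turned; PCDH17, not called, had 0.35 ± 0.74. The covariate itself parted the regions, with every dorsal library at -0.30 or lower and every ventral library at -0.03 or higher, so that region and the meningeal score cannot be told apart in these libraries. With the choroid plexus list as a covariate CDH18 (-1.42 ± 0.29), CDH13 (-2.29 ± 0.36), CDH6 (-2.79 ± 0.39) and CDH7 (-2.87 ± 0.54) stayed called, PCDH17 (-2.26 ± 0.40, edgeR adjusted p = 0.0331) was called too, and CDH1 (-3.24 ± 0.70, edgeR adjusted p = 0.0506) and CDH22 (0.53 ± 0.36, adjusted p = 0.262) did not. The part of subicular, striatal, interneuron and oligodendrocyte markers in these differences was not tested.

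Genes of proteins that work with cadherins were counted by list, against the 4.51% of all tested genes called between regions. None of 6 tested catenins was called, the smallest p being that of CTNNA3, an alpha-catenin, at 0.73 ± 0.32 (edgeR adjusted p = 0.347). Of 8 genes of the WAVE complex 1 was higher in dorsal tissue, its small subunit BRK1 (0.99 ± 0.16, edgeR adjusted p = 0.00628), and the list had a median log2 fold change of 0.46, with 3 genes at an unadjusted p under 0.05, against 13.7% of all tested genes. Of 2 kinases held by clustered protocadherins PTK2B was higher (0.67 ± 0.13, edgeR adjusted p = 0.0141), and PTK2, the focal adhesion kinase, had 0.01 ± 0.12. None of 5 genes of cadherin cleavage and none of 6 genes of clustered gene choice was called, with the smallest p in NCSTN, a subunit of gamma-secretase (0.10 ± 0.10), and in WAPL, which releases cohesin from DNA (0.20 ± 0.22). Among 18 tested far relatives of the family 1 was lower, CDHR1, the photoreceptor cadherin (-2.04 ± 0.24, edgeR adjusted p = 0.00133); the list ran from -3.09 to 0.72 with a median of -0.29, and 8 of the 18 had an unadjusted p under 0.05.

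Chronic stress was compared with control within each region. In dorsal hippocampus 0 of 31 members were called by edgeR (0% of all tested genes), and 0 had an unadjusted p under 0.05, against 0.854% of all tested genes. In ventral hippocampus 0 were called as well (0% of all tested genes), with 0 at an unadjusted p under 0.05, against 0.797% of all tested genes. Averaged over both regions 0 were called (0% of all tested genes) and 0 had an unadjusted p under 0.05, against 1.73% of all tested genes. DESeq2 and limma-voom also called 0 members in all 3 comparisons. The SE ran from 0.17 to 1.61 log2 units in dorsal and from 0.17 to 1.52 in ventral tissue, so that for most members a moderate change could not be told from none.

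The members with the smallest p for stress in dorsal tissue are given as values. PCDH1 had 266, 227 and 267 CPM in dorsal stress against 211, 198 and 206 CPM in dorsal control, with a log2 fold change of 0.31 ± 0.19 (edgeR adjusted p = 1.000). All of its dorsal stress libraries were above all dorsal control libraries, while in ventral tissue it had -0.02 ± 0.19. CDH16 had -0.56 ± 0.39, and its dorsal stress libraries, at 4.86 CPM or less, were all below the dorsal control libraries, at 5.85 CPM or more. These were the 2 of 31 members whose dorsal stress and dorsal control libraries did not overlap, against 5.13% of all tested genes. Markers of choroid plexus summed to 507 to 1227 CPM in dorsal stress and 871 to 2992 CPM in dorsal control, and 6 pituitary markers, of which 5 were tested and none was called, to 4.62 to 10.9 CPM in dorsal stress and 111 to 151 CPM in dorsal control. Dorsal stress libraries were also the shallower ones. With counts thinned to 1 depth no gene was called for stress in dorsal tissue (0 of 16544), nor with the choroid plexus score (0 of 17806). The part of depth and of these markers in the separation of PCDH1 and CDH16 was not tested. The other 3 were CDH15 (-1.31 ± 0.83), CDH4 (0.20 ± 0.18) and PCDH9 (0.60 ± 0.58).

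In ventral tissue the smallest p was that of PCDH8. It had 37.7, 34.7 and 33.2 CPM in ventral stress against 29.7, 29.6 and 24.6 CPM in ventral control, with a log2 fold change of 0.33 ± 0.17 (edgeR adjusted p = 1.000). Ventral stress lay above ventral control in all libraries of PCDH8 and of CDH4, which had 27.0, 26.0 and 24.3 CPM in ventral stress against 23.2, 23.0 and 22.0 CPM in ventral control (0.18 ± 0.18). They were the 2 of 31 members without overlap there, against 2.86% of all tested genes. In dorsal tissue PCDH8 had -0.09 ± 0.17, and the difference between its 2 stress effects, dorsal minus ventral, was -0.43 ± 0.24 (edgeR adjusted p = 1.000). The other members with a small p in ventral tissue were CDH22 (0.48 ± 0.27), CDH15 (-1.34 ± 0.87) and CDH23 (0.36 ± 0.25).

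Averaged over both regions, 25 of 31 log2 fold changes of stress over control were positive, with a median of 0.15 against -0.01 over all tested genes. The 31 values share the same libraries, so that this count of signs is a description of them. The smallest p was that of CDH15 at -1.33 ± 0.60 (edgeR adjusted p = 1.000). CDH15 had 0.796, 0.253 and 0.0817 CPM in dorsal stress and 1.54, 0.337 and 1.06 CPM in dorsal control, and 0.309, 0.119 and 0.0596 CPM in ventral stress against 0.505, 0.446 and 0.280 CPM in ventral control, so that it rested on as little as 1 count in a library. CDH22 had 0.32 ± 0.19, CDH4 0.19 ± 0.13, CDH16 -0.37 ± 0.27 and PCDH1 0.14 ± 0.14. For the difference of stress effects, dorsal minus ventral, the smallest p after PCDH8 were those of CDH23 (-0.43 ± 0.35), PCDH1 (0.33 ± 0.27), CDH22 (-0.32 ± 0.39) and CDH16 (-0.39 ± 0.55).

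**Figure D4:**
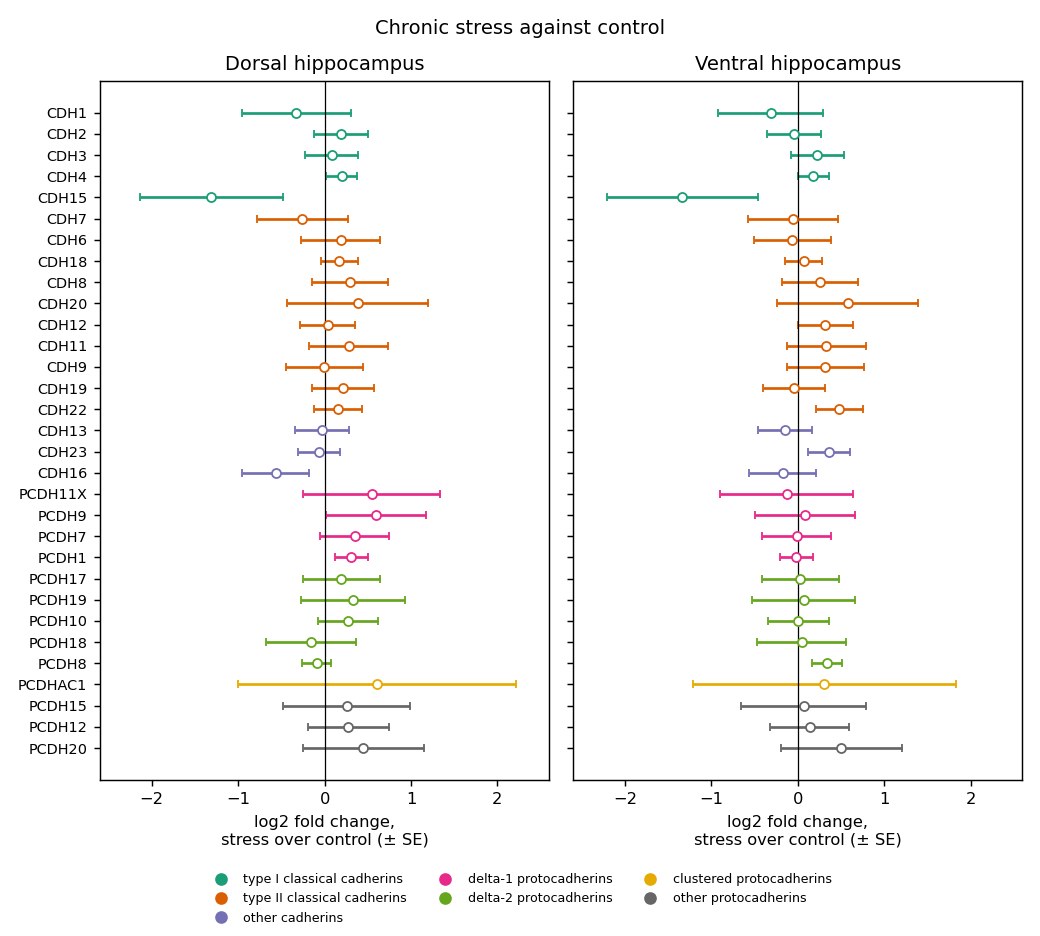
Log2 fold change of stress over control with SE for the 31 tested members in dorsal (left) and ventral hippocampus (right), in the same order and colours by subfamily. All points are open because none passed an adjusted p of 0.05; PCDHAC1 has the widest bars, with SE of 1.61 in dorsal and 1.52 in ventral tissue.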

How the data were processed

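RNA was extracted with TriReagent and libraries were made with a stranded kit that selects polyadenylated RNA, per the labels' protocols. The authors deposited whole read counts per gene for the 12 libraries, and each column was matched to its sample by the sample description. The submitters' processing notes name featureCounts 2.0.0 and SAMtools 1.9, the aligners TopHat2 2.1.1 and Bowtie2 2.3.5.1, and FastQC and bcl2fastq 2.20. Strand setting, annotation, genome build and the treatment of multi-mapped reads are items not given in the sources used here, so that no positions are printed, reads of a gene and of an overlapping antisense gene cannot be told apart, and no sequences are shown.

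Differences in counts were tested with edgeR 4.0.16 in R 4.3.3 (filterByExpr by group, TMM, robust quasi-likelihood fit, 1 mean per group). The filter left 17806 genes, and 9337 had no count at all. The SE was obtained as the size of the log2 fold change over the root of its F value. CPM uses the TMM factors, and principal components use log2 CPM with a prior count of 2. No 2 libraries of a group held the same counts: chi-square per degree of freedom was 19.7 or more for each pair. The p-values rest on the spread between libraries of the same group, each a pool of 2 ewes. For comparisons between regions they take no account of the ewes shared by dorsal and ventral pools. The fit was also run on simulated counts, drawn independently for each gene and library. Those counts held no axis common to many genes and no ewes shared between regions, so that run cannot speak to either.

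Alternatives were DESeq2 1.42.0, limma-voom (limma 3.58.1), RLE factors, a minimum of 1 CPM in 3 libraries, no filter, a block for replicate number, a block for ewe pools, marker scores as covariates and leaving out each library. The block for ewe pools assumes that same-numbered dorsal and ventral libraries of a condition hold the same ewes, which the labels do not state. Counts thinned to 12254743 per library, a residual factor and the removal of 3 libraries were added after seeing the data. Same-numbered libraries of stress and control, from other ewes, had positive correlations of their deviations (0.285 to 0.712 in dorsal and 0.241 to 0.787 in ventral tissue). Differently numbered pairs ran from -0.643 to 0.568 in dorsal and from -0.668 to 0.548 in ventral tissue, so some exceeded same-numbered ones. Between regions the correlations of same-numbered libraries were mixed (-0.233 to 0.761, with 4 of 6 pairs positive), so that not every pair deviated together. Members called in any comparison are described with their values, and otherwise the 5 with the smallest p; in each subfamily the member with the most counts is named too. The members and lists were chosen with earlier results of these data known.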

Additional observations from a re-analysis of the deposited data

How the results depend on the processing

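Between regions over both conditions, 6 members were called, and the count stayed between 5 and 9 under RLE factors, both other filters, DESeq2, limma-voom, both blocks, the choroid plexus score, thinned counts and the removal of the 3 libraries lowest on the first component. Under these settings the genes called in all ran from 251 with the choroid plexus score to 1558 with DESeq2, against 803 with the settings of the report. The count of members was 0 with the meninges score (0 of 17806 genes) and 14 with the first residual factor (3761 genes). That factor was computed from the same residuals and so gives p-values that are too small. Leaving out 1 library gave 2 to 7 members, with 420 to 1091 genes in all. In stressed ewes 1 member and 79 genes in all were called with the settings of the report, 3 members with DESeq2 (580 genes), 2 with the choroid plexus score (48 genes), 2 with thinned counts (85 genes), 10 with the residual factor (1589 genes), and 0 with the meninges score or without those 3 libraries, where no gene was called (0 to 2 on leaving out 1 library). CDH18 was not among the 2 called with the choroid plexus score. In control ewes it was 2 of 178 genes, with 5 in DESeq2 (728 genes), 14 with the residual factor (2004 genes), 1 without those 3 libraries (55 genes), and 0 with the choroid plexus score (3 genes) or the meninges score (0 genes) (0 to 3 on leaving out 1 library). With the meninges score the sign turned for CDH1 (0.70 over both conditions, 1.15 in stressed and 0.26 in control ewes) and, in stressed ewes, for CDH13 (0.058) and CDH6 (0.18). For stress averaged over regions the residual factor gave 3 calls, PCDH20, CDH8 and CDH11, among 411 genes in all, and every other stress setting gave 0 members. The causes were not tested.

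The replicate numbers pair no libraries across regions by the labels. With a replicate block 9 members were called over both conditions (1374 genes in all), PCDH17, CDH16 and PCDH10 being added; 4 in stressed ewes (314 genes), CDH13, CDH1 and CDH6 being added; and 5 in control ewes (440 genes), PCDH17, CDH1 and CDH6 being added. With a replicate block of ewe pools 7 members were called over both conditions (823 genes), PCDH17 being added, 1 in stressed ewes (57 genes), CDH13 in place of CDH18, and 3 in control ewes (156 genes), CDH1 being added. The replicate block changed no stress call. At this depth CDH26, CDH17 and PCDHB1 could not be tested, and PCDHAC1 and CDH15 had 0 to 90 and 1 to 78 counts per library.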
